A study of Mus musculus with 8 samples.

Results

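Adipose tissue of obese mice that carry an sgp130Fc transgene was compared with adipose tissue of obese mice that lack the IL6 gene, array against array. The comparison takes the 6 arrays titled with these genotypes, 3 of each, out of 8 in the series, and the other two, from wild type (WT) mice, serve for reference. Of 25697 probes on the array, 14141 had a detection p under 0.05 on at least 2 of the 8 arrays and were tested; they stand for 9803 named genes, and 831 of them carry no gene name here.

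Interleukin 6 (IL-6) is a cytokine made by fat, muscle and immune cells. In classic signalling it binds its receptor Il6ra on the cell membrane, and in trans-signalling it binds a soluble form of that receptor; both complexes then engage gp130, encoded by Il6st, and activate the transcription factor STAT3, which induces the feedback inhibitor Socs3 and acute-phase genes. The sgp130Fc protein is a soluble gp130 joined to an antibody Fc part, which captures IL-6 bound to soluble receptor and leaves the membrane receptor free. The comparison therefore sets fat in which classic signalling is kept against fat in which all IL-6 is lost.

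All mice were high-fat fed and obese, were on the C57Bl6 background and had been fasted for 5 h. The sgp130Fc mice were 26 weeks old, the IL6 knock-out mice (IL6_KO) 25 weeks and the WT mice 24 weeks, so age and genotype cannot be told apart. The promoter of the transgene, the fat depot, the sex and the time of day of collection are not given in the sources used here, and the transgene itself was not analysed here. The labels number the replicates without naming separate animals, and the p-values here therefore reflect how these samples vary, which may in part be technical variation.

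Median intensity before normalization ranged from 109.1 to 145 over the 8 arrays, with the lowest values on sgp130Fc replicates 3 and 2 (109.1 and 119.7), and 48.6% to 52.1% of probes were detected per array. IL6_KO replicate 2 stood apart: its mean correlation with the other arrays across probes was 0.944, against 0.964 to 0.973 for the others, and its score on the first principal component was 62.6, against -27.3 to 23.7. The calls of the genes described below that were lost without it are named beside them. The number of arrays limits the precision, and the median standard error (SE) of a log2 difference was 0.19. Levels are normalized log2 intensities, in the order of the replicate numbers, and a difference is sgp130Fc minus IL6_KO with its SE. Higher, lower, rose and fell, where no other group is named, describe sgp130Fc relative to IL6_KO and not to WT.

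The targeted gene, Il6, lay near background everywhere. Its levels were 5.17, 5.06 and 5.16 on the IL6_KO arrays, 4.78, 4.62 and 4.46 on the sgp130Fc arrays, and 4.40 and 4.47 in WT. It was called above background on 2 IL6_KO arrays and on no other array, and the difference did not pass (-0.51, limma adjusted p = 0.126). The probe may sit inside or outside the deletion, which the sources used here do not settle, and the genotype is therefore not checked by it. Il6ra differed by -0.24 (adjusted p = 0.685) and Il6st by 0.02 (adjusted p = 0.958), both between overlapping groups.

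In limma's moderated test with Benjamini-Hochberg adjustment over all probes, 177 of 14141 probes (1.25%) passed an adjusted p of 0.05. Of these, 113 were higher in sgp130Fc (0.799% of those tested) and 64 were lower (0.453%). They named 156 genes, 101 higher and 55 lower, and 4 of the probes had no gene name. The WT mean lay between those of the compared groups for 82 of the higher and 43 of the lower genes. It lay beyond the sgp130Fc mean for 13 and 10, and beyond the IL6_KO mean for 6 and 2. All 177 probes had groups that did not overlap, which held for 25.7% of all tested probes. Chil1 and Ctse were above background in sgp130Fc alone, and Pilra and Ptpn7 in IL6_KO alone, so these genes entered the test through the group where they are high, their difference follows in part from the filter, and their p-values are not given as support. Taking each gene by its brightest probe, 1.44% of 9803 genes passed, 0.949% higher and 0.49% lower, and the median difference over all genes was 0.00094. Some genes of glucocorticoid response, the clock, blood vessels and red cells were among the higher ones, and some of mast cells and phagocytes among the lower ones. In whole tissue, fewer cells of a type and less RNA per cell cannot be told apart.

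**Figure D1:**
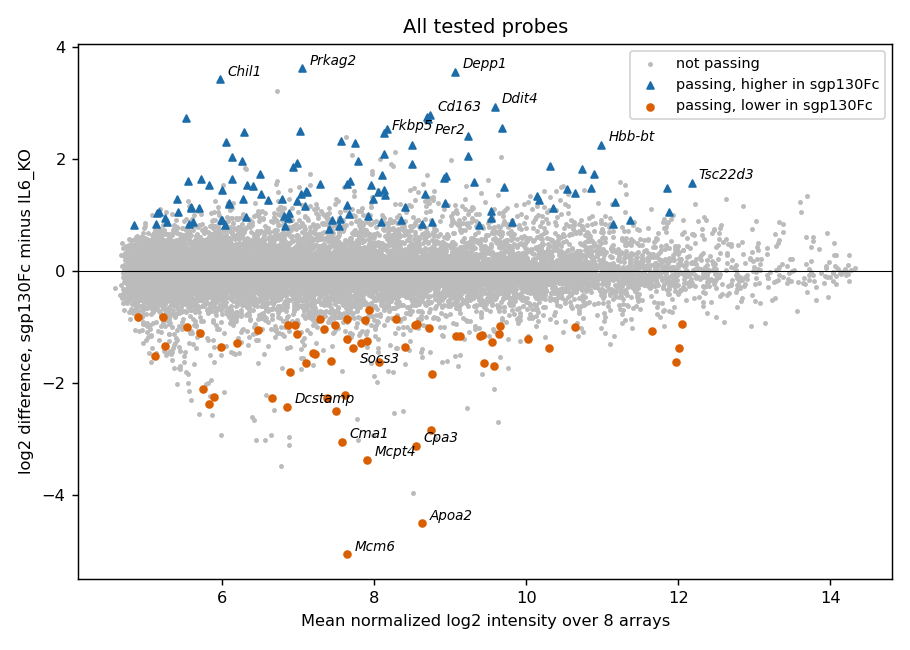
Difference between genotypes (vertical axis, log2, sgp130Fc minus IL6_KO) against mean normalized log2 intensity over the 8 arrays (horizontal axis) for 14141 tested probes. Triangles mark the 113 passing probes that were higher in sgp130Fc, filled circles the 64 that were lower, and grey points those that did not pass; Mcm6 lies lowest and Prkag2 highest.

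The count depended on single arrays. Leaving out IL6_KO replicate 2 gave 143 passing probes, 113 of them among the 177 of the main fit. Leaving out IL6_KO replicate 3 gave 495 and IL6_KO replicate 1 gave 43, and leaving out sgp130Fc replicate 1, 2 or 3 gave 35, 26 or 24. In all, 17 genes passed with each of the 8 arrays left out in turn, 16 higher in sgp130Fc, Chil1 and Ctse among them, and 1 lower, Mcm6. The detection filter was not redone in these fits, so the passing of Chil1 and Ctse in them is not given as support. Leaving out either WT array gives the same fit, because a single WT array adds nothing to the estimate of spread. All 156 genes kept their direction in every alternative that was run, and 100 of them passed without IL6_KO replicate 2.

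The 16 higher genes that passed with each array left out included the signalling and stress genes Prkag2, Depp1 and Ddit4. Prkag2 encodes a gamma subunit of the energy sensor AMP-activated protein kinase. Its levels were 4.55, 4.89 and 4.75 in IL6_KO, 8.29, 8.28 and 8.50 in sgp130Fc, and 8.78 and 8.45 in WT. No IL6_KO array had it above background, and the sgp130Fc arrays lay close to WT: it was at least 10.1-fold higher in sgp130Fc (adjusted p = 2.46e-05). Depp1, a FOXO-induced regulator of autophagy, lay at 6.74, 7.49 and 7.20 in IL6_KO against 10.51, 10.95 and 10.66 in sgp130Fc, with 9.83 and 9.15 in WT. Every sgp130Fc array was above every other array, an 11.8-fold difference from IL6_KO (3.56 ± 0.25, adjusted p = 0.000335). Ddit4, an inhibitor of mTORC1 that is induced by stress and glucocorticoids, lay at 8.30, 7.73 and 8.22 in IL6_KO, at 10.96, 10.95 and 11.15 in sgp130Fc, and at 9.83 and 9.58 in WT. The 3 groups did not overlap, with WT in between, and the difference was 7.68-fold (adjusted p = 0.000238).

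Chil1, which encodes a chitinase-like lectin secreted by myeloid cells, lay at 4.65, 5.06 and 4.66 in IL6_KO and at 8.85, 7.51 and 8.31 in sgp130Fc. It was above background on the 3 sgp130Fc arrays and on none of the others, at least 9.20-fold higher than in IL6_KO. Ctse, the aspartic protease cathepsin E, was likewise above background on the sgp130Fc arrays alone, at 6.84, 7.07 and 7.69, at least 4.53-fold higher. Acer2, a ceramidase of the Golgi, rose 5.33-fold relative to IL6_KO (adjusted p = 0.00101), and Pam, which amidates peptide hormones, 3.15-fold (adjusted p = 0.00281). Fam107a, an actin-associated protein, was not above background in IL6_KO and was at least 3.88-fold higher (adjusted p = 0.000298). Tmem252 was also not above background there and was at least 2.63-fold higher, while Fam214a and the sialyltransferase gene St6galnac2 were 2.53-fold and 2.32-fold higher.

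**Figure D2:**
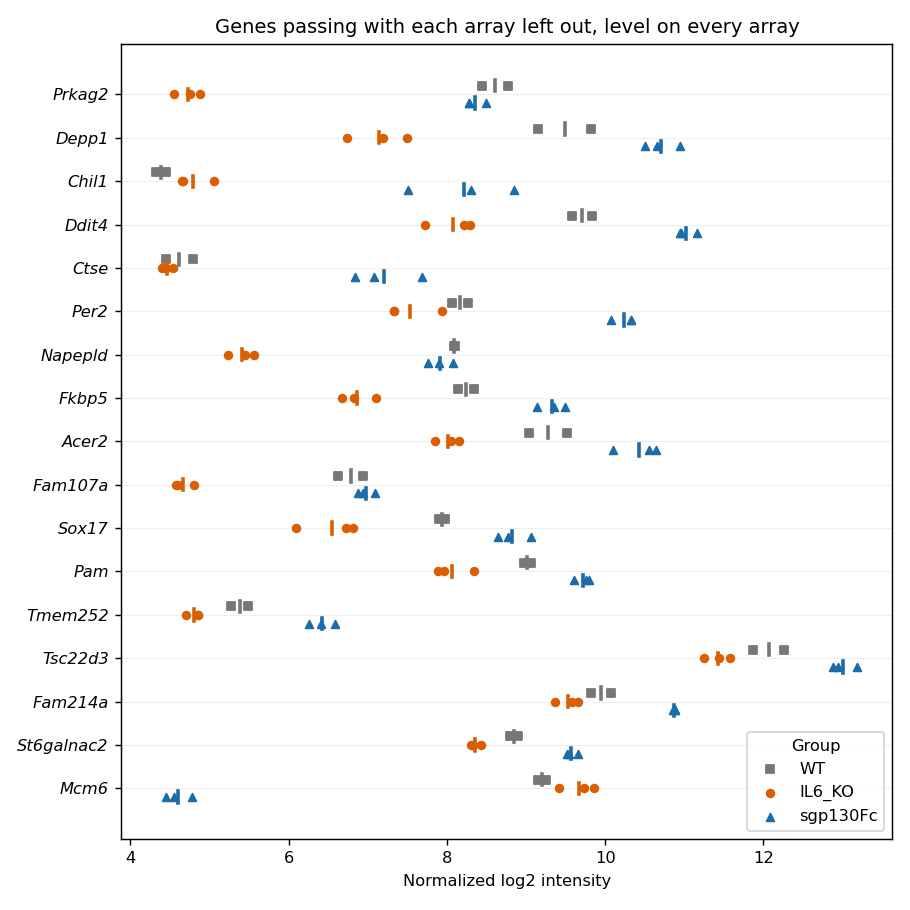
Level of the 17 genes that passed with each array left out in turn (horizontal axis, normalized log2 intensity), with 1 symbol per array, squares for WT, circles for IL6_KO and triangles for sgp130Fc, and short vertical lines at the group means. The sgp130Fc and IL6_KO arrays are separate for every gene; Mcm6 is the gene with low sgp130Fc levels, and Prkag2 and Napepld have WT means above the sgp130Fc means.

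Mcm6, a subunit of the helicase that unwinds DNA at replication origins, had the most negative difference of the passing probes. Its probe ILMN_1217331 lay at 9.73, 9.85 and 9.41 in IL6_KO, at 4.55, 4.46 and 4.78 in sgp130Fc, and at 9.15 and 9.26 in WT. It was not above background on any sgp130Fc array, at least 24.4-fold lower than in IL6_KO (adjusted p = 3.18e-06). The other two Mcm6 probes differed less, by -1.25 (adjusted p = 0.0342) and -0.38 (adjusted p = 0.383), so the probes of this gene disagree in size. Of 22 tested genes of the cell cycle and DNA replication, none passed by its brightest probe, and their median difference was -0.24.

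Glucocorticoids are adrenal hormones that act through a nuclear receptor and induce a shared set of genes in fat, macrophages and endothelium. The circadian clock is a feedback loop in which Arntl and Clock drive Per and Cry genes through E-boxes in their promoters, and Per and Cry proteins then repress that drive; Per1 is also a direct glucocorticoid target and is counted in both lists below. For the genes in these programmes with a listed RefSeq promoter (GRCm38.p6, from 250 bases before to 50 bases after the gene start), the promoters of Per1, Ciart, Fkbp5 and Dusp1 are shown because each gene passed and its promoter holds a perfect E-box, CACGTG, given in capitals.
Per1 promoter, chr11:69098699-69098998, plus strand: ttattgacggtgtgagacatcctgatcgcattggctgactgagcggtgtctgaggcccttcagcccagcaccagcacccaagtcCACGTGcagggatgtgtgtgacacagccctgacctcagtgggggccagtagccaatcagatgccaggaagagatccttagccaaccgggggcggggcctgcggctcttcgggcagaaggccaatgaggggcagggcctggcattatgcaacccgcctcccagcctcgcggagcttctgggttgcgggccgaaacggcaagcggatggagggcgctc
Ciart promoter, chr3:95882179-95882478, minus strand: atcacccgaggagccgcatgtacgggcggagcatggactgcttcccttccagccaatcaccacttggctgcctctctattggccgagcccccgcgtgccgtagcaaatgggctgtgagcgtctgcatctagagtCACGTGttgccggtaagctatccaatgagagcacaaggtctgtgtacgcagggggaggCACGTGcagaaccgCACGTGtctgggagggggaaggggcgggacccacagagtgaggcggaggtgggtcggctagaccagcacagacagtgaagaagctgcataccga
Fkbp5 promoter, chr17:28486100-28486399, minus strand: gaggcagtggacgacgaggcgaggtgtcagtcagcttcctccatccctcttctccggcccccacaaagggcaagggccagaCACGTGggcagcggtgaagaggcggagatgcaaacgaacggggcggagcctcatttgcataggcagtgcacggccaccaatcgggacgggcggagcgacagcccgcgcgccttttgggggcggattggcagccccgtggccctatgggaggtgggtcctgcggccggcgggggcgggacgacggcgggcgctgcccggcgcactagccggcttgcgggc
Dusp1 promoter, chr17:26508423-26508722, minus strand: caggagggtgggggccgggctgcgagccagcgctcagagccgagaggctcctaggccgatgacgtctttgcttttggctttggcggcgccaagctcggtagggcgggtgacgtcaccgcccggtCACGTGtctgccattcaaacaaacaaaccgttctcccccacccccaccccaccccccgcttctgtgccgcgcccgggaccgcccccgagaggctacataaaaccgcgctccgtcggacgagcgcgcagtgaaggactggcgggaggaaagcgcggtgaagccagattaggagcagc

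The E-box begins 166 bases before the start in Per1, 169 bases before it in Fkbp5, 126 in Dusp1, and 116, 58 and 44 bases before it in Ciart. The motif, which reads the same on both strands, stood in a promoter of 8.09% of 27025 genes, in 3 of the 13 tested clock genes with a promoter listed, and in 4 of the 15 tested glucocorticoid-responsive genes. The pair of glucocorticoid receptor half-sites ACANNNTGT, which is its own reverse complement, stood in 7.90% of genes and in 4 of the same 15 genes. Neither match shows that a factor binds there.

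Of 17 tested glucocorticoid-responsive genes, 8 rose and none fell (background 0.949% and 0.49%), with a median difference of 1.10 and 16 positive differences, where 50.2% of all genes had one. Fkbp5, a co-chaperone that restrains the glucocorticoid receptor, lay at 7.10, 6.68 and 6.82 in IL6_KO, at 9.35, 9.14 and 9.49 in sgp130Fc, and at 8.13 and 8.34 in WT. The 3 groups were separate, and Fkbp5 was 5.51-fold higher in sgp130Fc (2.46 ± 0.17, adjusted p = 0.000335). Tsc22d3, the glucocorticoid-induced leucine zipper, lay at 11.25, 11.44 and 11.58 in IL6_KO, at 12.94, 12.87 and 13.19 in sgp130Fc, and at 12.26 and 11.87 in WT. The groups were again separate in the same order, 2.98-fold between sgp130Fc and IL6_KO (adjusted p = 0.00569), and the other Tsc22d3 probe did not pass. Pdk4, a kinase that shuts off pyruvate dehydrogenase, lay at 9.01, 7.73 and 8.83 against 10.75, 11.38 and 11.11, 5.89-fold higher (adjusted p = 0.0115), the lowest value being that of IL6_KO replicate 2. The stress kinase gene Map3k6 rose 3.77-fold (adjusted p = 0.00796), the phosphatase gene Dusp1 2.09-fold (adjusted p = 0.0181), and Ddit4, Per1 and Lcn2 are the others that passed.

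The members that did not pass ranged from -0.16 to 1.43; the highest was Mt2, a metal-binding metallothionein (1.43, adjusted p = 0.0571). Hsd11b1, the enzyme that regenerates active glucocorticoid inside cells, had 1 passing probe (1.28, adjusted p = 0.0171, above background on 1 of 3 IL6_KO arrays), and its brighter probes did not pass (1.10 to 1.17). With each array left out in turn, 4 to 9 of the 17 genes passed and the median lay between 1.07 and 1.41. Leaving out IL6_KO replicate 2 left 7, without Lcn2 (adjusted p = 0.0794).

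Of 15 tested clock genes, 3 rose and 2 fell (over all genes 0.949% and 0.49%), with a median difference of 0.76. Per2, a repressor of the loop, lay at 7.33, 7.93 and 7.33 in IL6_KO, at 10.08, 10.33 and 10.32 in sgp130Fc, and at 8.07 and 8.26 in WT. The sgp130Fc arrays lay far above both other groups, 6.55-fold above IL6_KO (2.71 ± 0.20, adjusted p = 0.000401), and the other Per2 probe passed as well (2.54). Per1, its paralogue, lay at 6.01, 6.99 and 6.28 against 8.74, 8.78 and 8.73, 4.99-fold higher (adjusted p = 0.00797), and Ciart, a repressor of the Clock and Arntl dimer, rose by 0.87 (adjusted p = 0.0341).

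Arntl, the activator of the loop, went the other way. It lay at 7.92, 7.45 and 8.26 in IL6_KO, at 6.21, 6.67 and 6.28 in sgp130Fc, and at 7.67 and 7.31 in WT, 2.81-fold lower in sgp130Fc than in IL6_KO (adjusted p = 0.023). Bhlhe40, an E-box-binding repressor, fell by 1.17 (adjusted p = 0.0376). All sgp130Fc values of both genes lay below all WT values. The 10 clock genes that did not pass ranged from -0.43 to 1.43. Between 2 and 6 clock genes passed with each array left out; without IL6_KO replicate 2 the adjusted p of Ciart was 0.0592 and that of Bhlhe40 0.068.

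**Figure D3:**
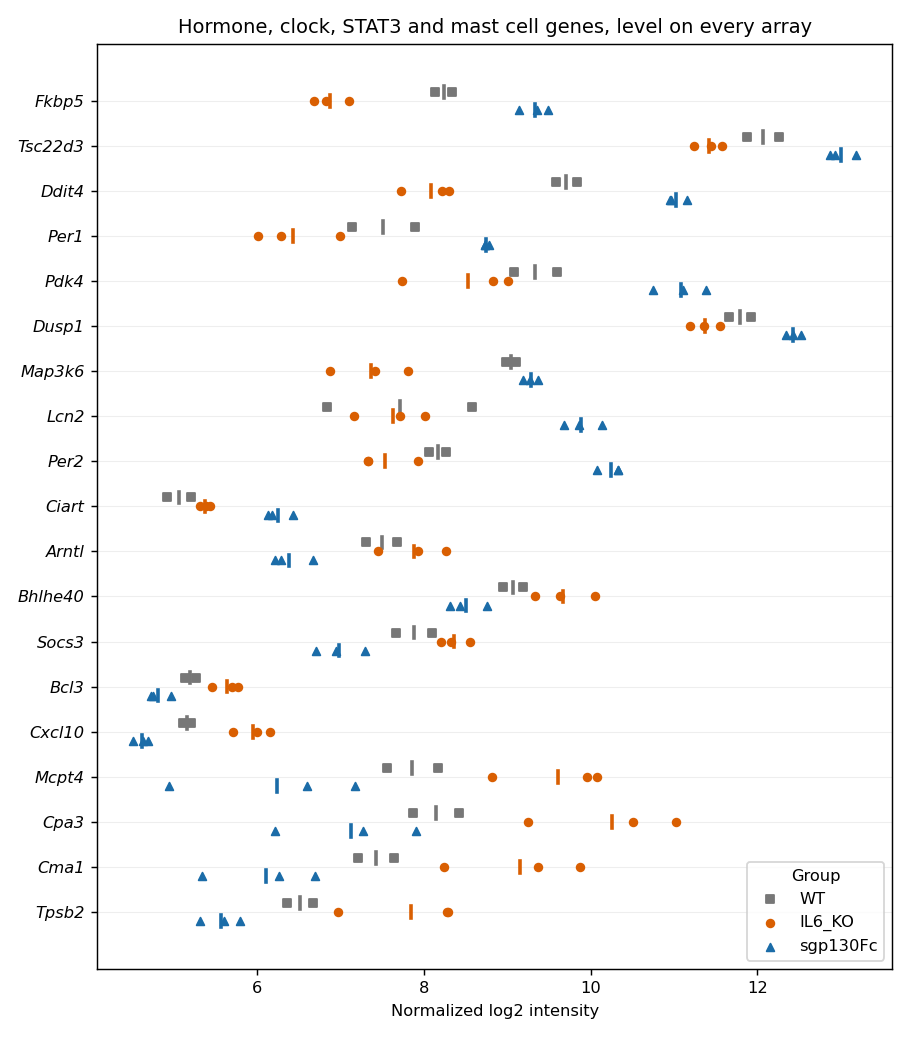
Level on every array (horizontal axis, normalized log2 intensity) of passing genes of the glucocorticoid, clock, STAT3 and mast cell lists, and of Cxcl10. Cxcl10 belongs to the chemokine and interferon lists. Squares stand for WT, circles for IL6_KO and triangles for sgp130Fc, with short vertical lines at group means. Fkbp5 through Ciart are higher in sgp130Fc, and Arntl through Tpsb2 are higher in IL6_KO.

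Genes that IL-6 induces through STAT3 did not move one way: of 24 tested, 1 rose and 2 fell (over all genes 0.949% and 0.49%). Their median was -0.08 (-0.025 without IL6_KO replicate 2). Socs3, the feedback inhibitor of gp130 signalling, is the classical readout of this pathway, and its promoter is shown with the STAT motif TTCNNNGAA in capitals.
Socs3 promoter, chr11:117969317-117969616, minus strand: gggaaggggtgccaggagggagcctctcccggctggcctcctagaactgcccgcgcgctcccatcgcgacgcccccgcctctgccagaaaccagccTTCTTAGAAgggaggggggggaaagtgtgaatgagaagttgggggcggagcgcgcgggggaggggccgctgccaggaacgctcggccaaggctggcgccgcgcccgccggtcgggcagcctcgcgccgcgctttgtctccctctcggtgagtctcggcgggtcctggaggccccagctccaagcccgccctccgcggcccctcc
The motif begins 154 bases before the start. It stood in 9.55% of all genes with a promoter listed and in 4 of the 18 tested STAT3-induced genes with a promoter listed. It also stood in 4 of the 15 glucocorticoid-responsive and 2 of the 13 clock genes. The E-box stood in 3 of the 18 STAT3-induced genes, so matches to these 2 motifs were not particular to 1 list. Socs3 lay at 8.21, 8.32 and 8.56 in IL6_KO, at 6.70, 7.29 and 6.94 in sgp130Fc, and at 7.67 and 8.09 in WT. The knock-out had the highest levels and sgp130Fc the lowest, with no overlap among the 3 groups, and Socs3 was 2.61-fold lower in sgp130Fc than in IL6_KO (-1.38 ± 0.20, adjusted p = 0.0172). It passed without IL6_KO replicate 2 (adjusted p = 0.0358) and in 5 of 8 fits with an array left out, the 2 without a WT array being the same fit.

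Bcl3, a nuclear partner of NF-kB, was above background on no sgp130Fc array and was at least 1.50-fold lower (adjusted p = 0.0376). Lcn2, the iron-binding lipocalin 2, rose instead: it lay at 8.02, 7.72 and 7.16 in IL6_KO, at 10.13, 9.86 and 9.68 in sgp130Fc, and at 6.84 and 8.58 in WT (4.78-fold, adjusted p = 0.0372). It was the 1 passing member of 20 tested acute-phase genes, whose median was 0.49 (0.32 without IL6_KO replicate 2). Over all genes, 0.949% passed as higher and 0.49% as lower, for this and the next 2 lists. Saa3, an acute-phase apolipoprotein of fat, differed by 1.17 (adjusted p = 0.284) and the complement factor gene Cfb by 0.92 (adjusted p = 0.0722). Among 11 ligands and receptors of the IL-6 family, Il27ra, a receptor chain that pairs with gp130, fell by 0.69 (adjusted p = 0.0405), and it passed in none of the 8 fits with an array left out. Among 16 transducers and regulators of JAK-STAT signalling, Socs3 was the member that passed, and the others ranged from -0.58 to 0.67.

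Mast cells store proteases in granules, and their genes were lower in sgp130Fc. Of 8 tested mast cell genes, out of 13 listed, 4 fell and none rose (over all genes 0.49% and 0.949%). All 8 differences were negative, as were 49.8% of those of all genes, and the median was -1.96. Cma1, a chymase stored in mast cell granules, lay at 9.37, 9.87 and 8.24 in IL6_KO, at 6.70, 5.34 and 6.27 in sgp130Fc, and at 7.21 and 7.64 in WT. The groups did not overlap, and sgp130Fc was 8.31-fold lower than IL6_KO (adjusted p = 0.0181). Mcpt4, a further chymase, lay at 9.95, 10.07 and 8.81 in IL6_KO against 7.17, 4.94 and 6.60 in sgp130Fc and was 10.4-fold lower (adjusted p = 0.0266). It was above background on 2 of 3 sgp130Fc arrays.

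Cpa3, the carboxypeptidase of mast cell granules, was 8.75-fold lower (adjusted p = 0.0267) and the tryptase gene Tpsb2 4.84-fold lower (adjusted p = 0.0197). Mrgprb2, a receptor of connective tissue mast cells, fell by 2.10 (adjusted p = 0.0243; above background on 1 of 3 sgp130Fc arrays). The summed linear intensity of the 8 genes was 1920 to 5248 in IL6_KO, 550 to 941 in sgp130Fc and 1221 to 1374 in WT, so WT lay between the others. Without IL6_KO replicate 2, Cma1 and Tpsb2 passed (adjusted p = 0.0363 and 0.0445), while Mcpt4 and Cpa3 did not (0.0678 and 0.0595). Between 0 and 5 of the 8 passed with each array left out.

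Phagocyte genes differed in both directions. Lipid-associated macrophages, which gather around dying fat cells, digest lipid and can fuse, had 3 of 19 tested genes lower and none higher. Over all genes, 0.49% passed as lower and 0.949% as higher, and the median of the list was -0.46. Dcstamp, a membrane protein needed for macrophage fusion, lay at 8.64, 8.83 and 7.40 in IL6_KO, at 5.53, 5.87 and 6.20 in sgp130Fc, and at 5.77 and 6.59 in WT. The IL6_KO arrays were above all others and the sgp130Fc and WT arrays overlapped, with a 5.36-fold difference between sgp130Fc and IL6_KO (adjusted p = 0.0243). Ctsk, a cathepsin that cleaves collagen, lay at 12.83, 13.50 and 12.67 against 11.70, 11.53 and 11.65 (2.59-fold lower, adjusted p = 0.038), with 10.78 and 11.46 in WT. The macrophage elastase gene Mmp12 was 3.08-fold lower (adjusted p = 0.0473) and the collagenase gene Mmp13 3.12-fold lower (adjusted p = 0.045, and 0.0435 without IL6_KO replicate 2). The WT means of Mmp12 and Mmp13, 10.89 and 6.10, lay below the sgp130Fc means of 11.53 and 6.61. Trem2, the lipid-sensing receptor of these macrophages, differed by -0.82 (adjusted p = 0.168) and Itgax by -1.11 (adjusted p = 0.114). Without IL6_KO replicate 2, none of Dcstamp, Ctsk and Mmp12 passed (adjusted p = 0.0542, 0.0607 and 0.0874) and the median of the list was -0.19.

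Resident macrophages of fat, which clear haemoglobin and carry lectin receptors, had 1 of 17 tested genes higher and none lower. Over all genes, 0.949% passed as higher and 0.49% as lower, and the median of the list was 0.37. Cd163, the scavenger receptor for haemoglobin bound to haptoglobin, lay at 7.40, 6.49 and 8.05 in IL6_KO, at 9.96, 9.98 and 10.38 in sgp130Fc, and at 9.13 and 8.51 in WT. The groups were separate, with a 6.94-fold difference (adjusted p = 0.0111) that also passed without IL6_KO replicate 2 (adjusted p = 0.008). The lectin genes Mgl2 and Clec10a differed by 0.68 and 0.63 and did not pass (adjusted p = 0.127 and 0.165). Il13ra2, a decoy receptor for IL-13, rose by 1.97 (adjusted p = 0.0111), and the other tested genes of alternative activation did not pass, apart from Chil1, which was tested through its sgp130Fc arrays alone.

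Of 16 tested genes of the macrophage lineage as a whole, none passed and the median was -0.38 (-0.21 without IL6_KO replicate 2). Adgre1, the F4/80 antigen, lay at 12.14, 12.34 and 12.01 in IL6_KO and at 11.83, 11.76 and 12.29 in sgp130Fc, overlapping groups above the WT levels of 11.23 and 11.27. The transcription factor gene Spi1 differed by -0.97 (adjusted p = 0.0662) and the Fc receptor gene Fcgr1 by 0.63 (adjusted p = 0.127). The summed intensity of the 16 genes was 81824 to 90148 in IL6_KO and 69692 to 81893 in sgp130Fc, against 63188 to 66219 in WT. The part of macrophage number in the differences of Dcstamp, Ctsk, Mmp12 and Cd163 was not tested.

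The list of the phagocyte NADPH oxidase, which makes superoxide, had 5 tested genes, the proton channel gene Hvcn1 among them. All 5 differences were negative, as were 49.8% of those of all genes, and the median was -1.16. Cyba, the membrane subunit p22phox of the oxidase, lay at 12.62, 12.93 and 12.52 in IL6_KO and at 11.78, 11.78 and 11.68 in sgp130Fc. It was near WT in sgp130Fc and fell by 0.94 (adjusted p = 0.0299), the 1 passing member of the 5 (over all genes 0.49% lower). The others did not pass, with Ncf4 at -1.03 (adjusted p = 0.0664) and the proton channel gene Hvcn1 at -1.71 (adjusted p = 0.0884). The integrin gene Itgb2 (CD18), the shared beta chain of leukocyte integrins, fell 3.60-fold (adjusted p = 0.0389), 1 of 9 integrin genes (over all genes 0.49% lower). Without IL6_KO replicate 2 it passed (adjusted p = 0.0365) and Cyba did not (adjusted p = 0.0568).

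Among 27 tested chemokines and receptors, 1 fell and 1 rose (over all genes 0.49% and 0.949%). Cxcl10, an interferon-induced chemokine for T cells, was above background on no sgp130Fc array and was at least 1.86-fold lower (adjusted p = 0.00796), while Cxcr4, the receptor for Cxcl12, rose 2.58-fold (adjusted p = 0.0172). Cxcl10 was also the 1 passing member of 21 tested interferon-stimulated genes, and it moved against the list. The list had 19 positive differences, where 50.2% of all genes had one, and a median of 0.38. Ccl2, the main attractant of monocytes, differed by -1.38 (adjusted p = 0.091), Tnf by -0.78 (adjusted p = 0.11) and the IL-1 antagonist gene Il1rn by -1.54 (adjusted p = 0.0591). Nfkbie, an inhibitor of NF-kB, fell by 0.97 (adjusted p = 0.0454, and 0.104 without IL6_KO replicate 2), and the transcription factor gene Egr2 fell by 1.70 (adjusted p = 0.0265).

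Some genes of blood vessel endothelium were higher in sgp130Fc. Of 19 tested endothelial genes, 5 rose by their brightest probe and none fell (over all genes 0.949% and 0.49%), and 7 rose by any probe. All 19 differences were positive, as were 50.2% of those of all genes, and the median was 0.83. Sox17, a transcription factor of arterial endothelium, lay at 6.72, 6.10 and 6.82 in IL6_KO, at 8.64, 8.77 and 9.06 in sgp130Fc, and at 7.98 and 7.91 in WT. The groups were separate with WT in between, 4.86-fold between sgp130Fc and IL6_KO (adjusted p = 0.00204). Gpihbp1, which carries lipoprotein lipase to the capillary lumen, rose 2.76-fold (adjusted p = 0.0401), the guidance receptor gene Robo4 2.17-fold (adjusted p = 0.028), the junction gene Esam 1.88-fold (adjusted p = 0.0387) and Emcn 1.77-fold (adjusted p = 0.0259). The other Robo4 probe did not pass. Cd300lg, a receptor of capillary endothelium, rose 2.84-fold (adjusted p = 0.00796). Pecam1 passed by 1 of its 2 probes (1.38, adjusted p = 0.0387; the brighter probe 0.77, adjusted p = 0.0716), and not without IL6_KO replicate 2 (adjusted p = 0.0849). Of 5 tested lymphatic endothelial genes none passed, 3 differences were negative and the median was -0.27.

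Of 16 smooth muscle and pericyte genes, 2 rose (over all genes 0.949%). They were the myosin gene Myh11 (2.25-fold, adjusted p = 0.0342) and the pericyte gene Higd1b (2.42-fold, adjusted p = 0.023). The WT mean of Myh11, 7.71, lay above its sgp130Fc mean of 7.48, and that of Higd1b, 6.86, below its sgp130Fc mean of 7.15. The summed intensity of the endothelial list was 10428 to 15460 in IL6_KO, 22965 to 23886 in sgp130Fc and 22547 to 23966 in WT, so sgp130Fc and WT overlapped. That of the smooth muscle and pericyte list was 4258 to 7335, 9087 to 10171 and 10759 to 14806. Without IL6_KO replicate 2, 5 endothelial genes and 2 of smooth muscle and pericytes passed, Esam not among them (adjusted p = 0.0595), and over all arrays left out in turn 0 to 7 endothelial genes passed.

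Of 6 tested erythroid genes, out of 15 listed, 3 rose in sgp130Fc and none fell (over all genes 0.949% and 0.49%). Of their differences 5 were positive and 1 was negative, and the median was 1.73. Hbb-bt, an adult beta globin, lay at 9.15, 9.22 and 10.17 in IL6_KO, at 11.62, 12.00 and 11.69 in sgp130Fc, and at 12.29 and 11.78 in WT. The IL6_KO arrays were below all others, and the difference was 4.78-fold (adjusted p = 0.0102). Hbb-b2 rose 3.12-fold (adjusted p = 0.023; above background on 1 of 3 IL6_KO arrays), and the beta globins are so alike that a probe cannot be assigned to 1 copy with certainty. Alas2, the first enzyme of haem synthesis in red cells, lay at 6.41, 6.02 and 7.60 against 9.17, 9.85 and 9.26 (6.73-fold, adjusted p = 0.0372). The summed intensity of the 6 genes was 5794 to 13788 in IL6_KO, 22527 to 24999 in sgp130Fc and 24153 to 25307 in WT; the part of retained blood in the vessel and Cd163 differences was not tested. Hbb-bt passed without IL6_KO replicate 2 (adjusted p = 0.0243), and Alas2 and Hbb-b2 did not (0.0872 and 0.0517).

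**Figure D4:**
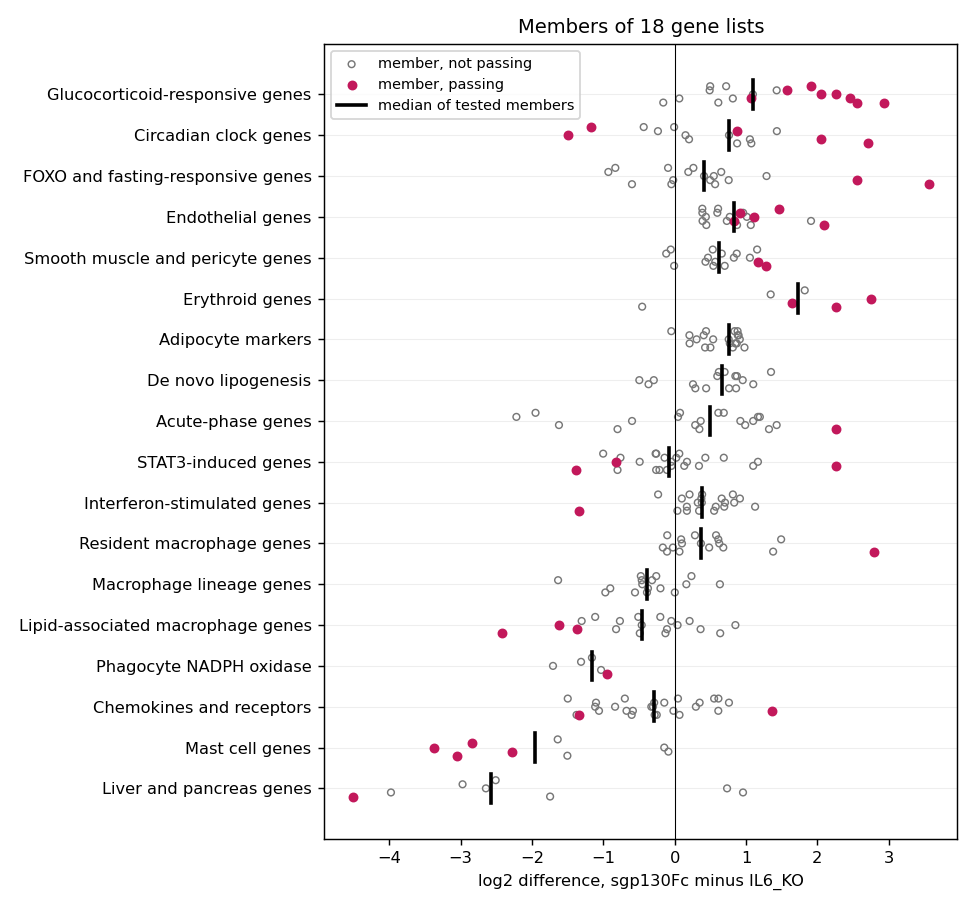
Difference of every tested member of 18 gene lists (horizontal axis, log2, sgp130Fc minus IL6_KO), each member by its brightest probe. Filled circles passed, open circles did not, and vertical bars are list medians; the lists from glucocorticoid-responsive to acute-phase genes have medians above 0, and mast cell and liver and pancreas genes have the lowest medians shown.

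The listed markers of the fat cell did not pass. Of 20 tested adipocyte markers, none passed and the median was 0.76. There were 19 positive differences, where 50.2% of all genes had one. Lep, which encodes leptin, lay at 13.94, 12.99 and 14.20 in IL6_KO and at 14.21, 14.19 and 14.24 in sgp130Fc (0.50, adjusted p = 0.379). Adipoq, which encodes adiponectin, lay at 13.14, 12.15 and 13.55 against 13.39, 13.34 and 13.43 (0.44, adjusted p = 0.478). IL6_KO replicate 2 was the lowest array for both, and without it the median of the adipocyte markers was 0.30. The glucose transporter gene Slc2a4 differed by 0.90 (adjusted p = 0.229), and the nuclear receptor gene Pparg by 0.82 (adjusted p = 0.156).

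The lists of lipid metabolism were alike. Among 16 genes of de novo lipogenesis none passed (median 0.66), with Fasn at 1.10 (adjusted p = 0.119) and Acaca at 0.86 (adjusted p = 0.119). Among 17 genes of triglyceride synthesis 1 rose (over all genes 0.949%), the phosphatidate phosphatase gene Lpin3 (1.12, adjusted p = 0.0294, and 0.068 without IL6_KO replicate 2), and the list had a median of 0.51. None passed among 16 genes of lipolysis and lipid droplets (median 0.69), 20 of fatty acid oxidation (0.35) and 17 of branched-chain amino acid breakdown (0.45). These 5 medians without IL6_KO replicate 2 were 0.27, 0.18, 0.31, 0.17 and 0.23. Of 17 FOXO and fasting-responsive genes, Depp1 and Pdk4 rose (over all genes 0.949%), and Pck1, which makes glycerol precursors in fat, differed by 1.29 (adjusted p = 0.0586).

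Gdpd3, a lysophospholipase D, was low in both genotypes, at 6.81, 7.12 and 6.97 in IL6_KO and at 6.70, 6.67 and 7.04 in sgp130Fc, against 10.51 and 10.83 in WT. The 2 compared groups overlapped (-0.16, adjusted p = 0.656).

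Transcripts of proteins made chiefly by liver varied widely between arrays. Apoa2, an apolipoprotein of high-density lipoprotein, lay at 9.86, 9.73 and 12.40 in IL6_KO, at 5.48, 6.86 and 6.12 in sgp130Fc, and at 10.44 and 8.17 in WT. The sgp130Fc arrays were below all others, 22.8-fold below IL6_KO (-4.51 ± 0.78, adjusted p = 0.0341), and the highest value was that of IL6_KO replicate 3. Ttr differed by -3.98 and Ahsg by -2.65 (adjusted p = 0.0576 and 0.079), with the same array highest. The summed intensity of the 8 tested genes of liver and pancreas, out of 18 listed, was 2720 to 16504 in IL6_KO, 1440 to 1532 in sgp130Fc and 2382 to 5983 in WT. Alb was not among the tested genes.

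Some differences lay near the targeted gene on chromosome 5. Of 178 tested genes within 200 protein-coding gene places of Il6, 6 had a passing probe (3.37%), against 149 of 9589 elsewhere (1.55%). They were Abcb4, Napepld, Kcnh2, Nos3 and Prkag2, which lie 120, 72, 54, 53 and 34 places before Il6, and Ldb2, 154 places after it. So 5 of 63 tested genes before Il6 passed, and 1 of 115 after it. Napepld, which makes N-acylethanolamines, lay at 5.56, 5.23 and 5.44 in IL6_KO, at 8.07, 7.90 and 7.76 in sgp130Fc, and at 8.09 and 8.10 in WT. As with Prkag2, sgp130Fc was near WT and the knock-out low (5.65-fold, adjusted p = 0.000238), and its other probe passed too (1.55, adjusted p = 0.0111).

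Nos3, the endothelial nitric oxide synthase, lay at 6.57, 5.85 and 7.00 in IL6_KO, at 8.37, 7.97 and 7.90 in sgp130Fc, and at 8.76 and 9.10 in WT (1.61, adjusted p = 0.0344), and its other two probes did not pass (adjusted p = 0.0687 and 0.0615). Kcnh2, a potassium channel, was above background on 1 of 3 IL6_KO arrays and differed by 1.45 (adjusted p = 0.028). Relative to IL6_KO, Ldb2, a LIM domain binding protein, rose by 0.98 (adjusted p = 0.0268) and Abcb4, a phospholipid transporter, fell by 0.86 (adjusted p = 0.0345). Their WT means were 7.28 and 6.87, against 7.15 and 7.47 in sgp130Fc and 6.17 and 8.33 in IL6_KO. Kcnh2, Ldb2 and Abcb4 did not pass without IL6_KO replicate 2 (adjusted p = 0.0595, 0.0536 and 0.0749). The other tested probes of Kcnh2 and Ldb2 did not pass with all arrays. Of the other 7 tested subunits and upstream kinases of AMP-activated kinase none passed, ranging from -0.57 for Camkk2 to 0.35. Abhd1, annotated as a transcribed pseudogene with 22 protein-coding genes between it and Il6, passed by 3 probes and was at least 4.52-fold lower in sgp130Fc. The probe with this bound was above background on 3 IL6_KO arrays, 1 WT array and no sgp130Fc array. It entered the test through the group where it is high, so its p-value is not given as support.

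**Figure D5:**
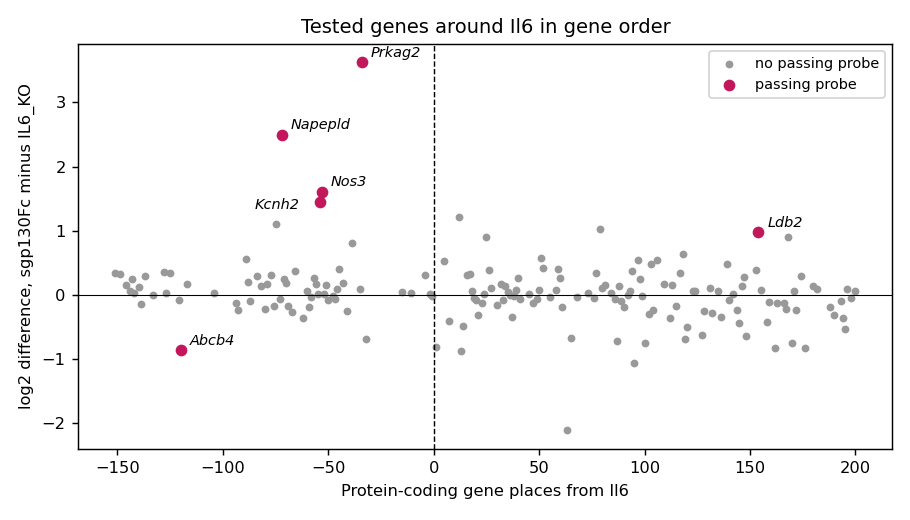
Difference (vertical axis, log2, sgp130Fc minus IL6_KO) of the 178 tested genes around Il6 by their place in the order of protein-coding genes (horizontal axis, negative before Il6, dashed line at Il6). The 6 large labelled points have a passing probe; 5 lie before Il6, with Prkag2 the highest and Abcb4 the 1 that was lower.

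On chromosome 1, which carries Mcm6, 14 of 505 tested genes had a passing probe (2.77%), against 155 of 9768 over all chromosomes (1.59%). Chromosomes 6 and 10 had shares of 2.5% and 2.3%. Among the 14, Chil1 and Ctse were tested through their sgp130Fc arrays alone, and Ptpn7 through its IL6_KO arrays alone. A stretch of 50 tested genes from Dtymk to Ctse held 6 of the 14, Pam, Insig2, Lypd1, Mcm6, Cxcr4 and Ctse. This was the highest number of any 50 consecutive tested genes, and the stretch was chosen for that number. Stretches of 50 on chromosomes 2 and 5 held 5 each.

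Further passing genes are given for completeness and were picked after their values were seen. Among those higher in sgp130Fc were the vessel-related genes Aqp1, a water channel (1.82), Edn1, the vasoconstrictor endothelin 1 (1.55), and Cdh13, a cadherin that binds adiponectin (1.45). Timp3, an inhibitor of metalloproteases, rose by 1.49 (adjusted p = 0.0266, and 0.0634 without IL6_KO replicate 2), and the matricellular genes Ccn2 and Ccn1 rose by 1.40 and 1.28. The other tested probes of Cdh13, Timp3 and Ccn1 did not pass. Rprml rose 5.62-fold (adjusted p = 0.00935; above background on 1 of 3 IL6_KO arrays). Among those lower were the leukocyte genes Cd52 (-1.06), the adaptor Dok2 (-0.98), the kinases Tec (-1.21) and Prkcb (-1.64), the urokinase receptor Plaur (-1.29), and F10, coagulation factor X (-2.28), each with IL6_KO levels above all sgp130Fc levels. Ccn1, Dok2 and Plaur did not pass without IL6_KO replicate 2 (adjusted p = 0.0672, 0.0725 and 0.0609). Insig2, a brake on sterol regulatory proteins, fell by 1.16 (adjusted p = 0.023), and Stac2 fell by 1.80 (adjusted p = 0.0299). A lysozyme probe labelled Lyz1 fell by 1.48 (adjusted p = 0.0152) while the brightest Lyz1 probe differed by 0.00192, and the lysozyme copies are too alike to be told apart.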

How the data were processed

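Adipose RNA from 8 samples was measured on Illumina bead arrays, 1 sample per array. The deposited probe intensity is linear, without background correction, and the deposited detection p-value compares it with negative controls, per the file headers. The normalized log2 values tested here were deposited by the authors; the submitters' processing notes name GenomeStudio and limma, with no versions. Running neqc of limma on the intensities gave values within 0.0548 of them.

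Probes detected at p under 0.05 on 2 or more arrays were fitted with lmFit and eBayes in limma 3.58.1 (R 4.3.3), with 3 group means over all 8 arrays, and sgp130Fc minus IL6_KO was tested on both sides with Benjamini-Hochberg adjustment over 14141 probes (threshold 0.05, 8.97 degrees of freedom, 3.97 of them prior). The model was also run on simulated independent normal values with planted differences, which does not measure its errors in these data. A fold against a group with no array above background is a bound, from the higher of each array's dimmest detected signal and the probe's own, and is written "at least". Gene names come from the array annotation, checked against RefSeq genes of GRCm38.p6 by identifier: 23978 probes had 1 symbol, 1719 had none given, 23962 were matched and 0 symbols changed.

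A list takes each gene by its brightest probe, and a passing gene named with its values stands by its passing probe with the largest difference. The shares to set beside any list count are those of all 9803 genes, 0.949% higher and 0.49% lower. Summed intensities are sums of 2 to the power of the log2 values. The genes named come from the 15 highest and 15 lowest passing genes, passing members of 60 lists, the 3 members of smallest p of each list, passing genes near Il6, and a set of 16 genes, of which Cd68 is not analysed here; the genes passing with each array left out and those of the chromosome 1 stretch were named after their values were seen, and others are marked. The members and lists were chosen with earlier results of these data known. The alternatives were other normalizations and filters, the 6 arrays alone, an intensity trend, array weights, a replicate block, a minimum log2 difference of 1, lists by the average probe of each gene, and leaving out each array.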

Additional observations from a re-analysis of the deposited data

How the results depend on the processing

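The 177 passing probes became 107 with no detection filter, 1735 with array weights and 79 with a replicate block, against 154 to 235 under the other normalizations, filters and models and 135 with a minimum log2 difference of 1. The estimation of array weights stopped before convergence. Higher probes, 113 in the main result, numbered 889 with weights and 57 with the block, and lower ones, 64, numbered 29 with no filter, 846 with weights and 22 with the block. Of the 6 genes near Il6, the count was 31 with weights and 3 with the block. With each array left out, all passing probes ranged from 24 to 495, higher ones from 23 to 243, lower ones from 1 to 252 and genes near Il6 from 2 to 11. The fewer tests or samples of some of these settings are part of their construction; otherwise the cause was not tested. The labels do not say whether the replicate numbers pair the samples. Same-numbered arrays had deviations from their group means that correlated at 0.18, -0.13 and -0.002, against -0.23 to 0.14 for arrays of unlike number. These few values do not settle whether samples are paired. With the block, 63 of the 156 genes passed. Il6ra turned to 0.0084 with array weights, and Il6st ranged from -0.068 to 0.067 with each array left out; neither passed. Of 1079 recomputed list medians, 78 moved by more than the spread between replicates, 18 of them with a change of sign. Scaling to the 75th percentile gave 182 passing probes. Probes near background on either side have differences limited by signal over background.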
